A study of Homo sapiens with 6 samples.

Results

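Kinesins are motor proteins that convert ATP hydrolysis into force along microtubules. One set of the family acts on the spindle, where its members push spindle poles apart, carry and align chromosomes, shorten microtubule ends or build the midzone at which the daughter cells part. Another set carries vesicles, organelles and protein complexes through the cytoplasm and along cilia, usually towards microtubule plus ends, and a cell that divides continuously, as a carcinoma line does, needs both. The family was examined here as the 42 genes, of 62492 listed, whose symbol has the form KIF or KIFC followed by a number and at most 1 letter from A to C. Of these, 15 were placed among the mitotic kinesins, 15 among the transport kinesins and 12 in a remaining group with ciliary, signalling or little-studied roles. CENPE, a kinesin of the kinetochore whose symbol lacks the KIF stem, is not a member and was read with the partners of the mitotic kinesins.

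The measurements were RNA-seq of HCT116 cells, a human colorectal carcinoma line with the genotype WT in its labels, transfected with siControl or with siNONO, an siRNA against NONO, at 20 nM in both groups. Each group had 3 libraries, labelled Set 1, Set 2 and Set 3, so that each Set paired 1 siControl with 1 siNONO library. NONO is an RNA- and DNA-binding protein of paraspeckles, and the comparison asks which transcripts differ when it is depleted. A single NONO duplex in a single cell line was used, and the harvest time of these libraries is not given in the sources used here, so loss of NONO and other effects of the duplex cannot be told apart.

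Library totals ran from 21765393 to 32659002 estimated counts. NONO itself stood at 496, 495 and 516 CPM (read counts scaled to a common library size by TMM) in the siControl libraries of Sets 1 to 3 and at 89.5, 95.5 and 100.4 CPM in the siNONO libraries, so every library carried the NONO level of its label. All 6 colorectal epithelial markers examined were detected in each library, from 33.1 to 1281 TPM (transcript abundance scaled for gene length and library size, which allows levels to be compared between genes). Their levels were not all equal in the groups. CLDN7, EPCAM and KRT19 rose in siNONO by 1.09, 0.32 and 0.14 on the log2 scale (adjusted p = 2.84e-09, 3.52e-06 and 0.00731 by edgeR). CDH1, KRT8 and KRT18 had log2 fold changes of -0.00094, -0.071 and 0.063 (adjusted p = 0.985, 0.0913 and 0.29 by edgeR). Thus 3 of the 6 were higher at an adjusted p of at most 0.05, against 23.2% of all genes tested. CLDN7 went from 87.6 ± 9.57 to 172 ± 18.3 TPM (SD, n = 3). On log2(TPM + 1) KRT19 rose by only 0.045 (adjusted p = 0.651 by limma). Of the 8 fibroblast, endothelial and leukocyte markers, COL1A1 was the highest in every library, at 16.2 to 19.0 TPM, and the leukocyte genes PTPRC and CD3E averaged 0.00333 and 0.0133 TPM in siControl and were listed at 0 in siNONO. Nothing in the sources used here says whether the Sets came from separate cultures beyond their description as biological replicates, so the tests measure the spread between these libraries.

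Kinesin transcripts summed to 933 ± 17.7 TPM in siControl and 679 ± 3.12 TPM in siNONO (SD, n = 3 each), and the larger part of that difference lay in the mitotic members. Of the 42 genes, 36 had enough counts to be tested, and 24 of them were called, meaning an adjusted p of at most 0.05 in edgeR's quasi-likelihood test over all genes tested. Among all 17000 genes tested, 46.6% were called in either direction. Lower in siNONO were 19 of the 36 kinesins, against 23.4% of all genes, and 5 were higher, against 23.2% of all genes. All 3 siNONO libraries lay below all 3 siControl libraries in 18 of the 36 members and above them in 7, where 24.0% and 23.9% of all genes did so. A fall of at least 0.5 on the log2 scale with a call was seen in 14 of the 36 tested kinesins and in 6.29% of all genes.

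The groups within the family differed in their counts. Among the 13 mitotic kinesins tested, 12 were lower and 1 was not called, with a median log2 fold change of -0.71. Among the 14 transport kinesins tested, 6 were lower, 4 were higher and 4 were not called, with a median of -0.05, while the median of all genes was -0.00. The 9 tested genes of the remaining group held 1 lower and 1 higher gene and had a median of -0.01. By share, 92.3% of the mitotic, 42.9% of the transport and 11.1% of the remaining kinesins were lower, against 23.4% of all genes. Higher were 0%, 28.6% and 11.1%, against 23.2% of all genes, so the transport share of higher genes was near that of all genes. In Sets 1, 2 and 3 the median log2 ratio of the mitotic members was -0.78, -0.68 and -0.76, and that of the transport members was -0.05, -0.02 and -0.09. These lists were drawn up with earlier results of these data known, and their counts and medians are descriptions.

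**Figure D1:**
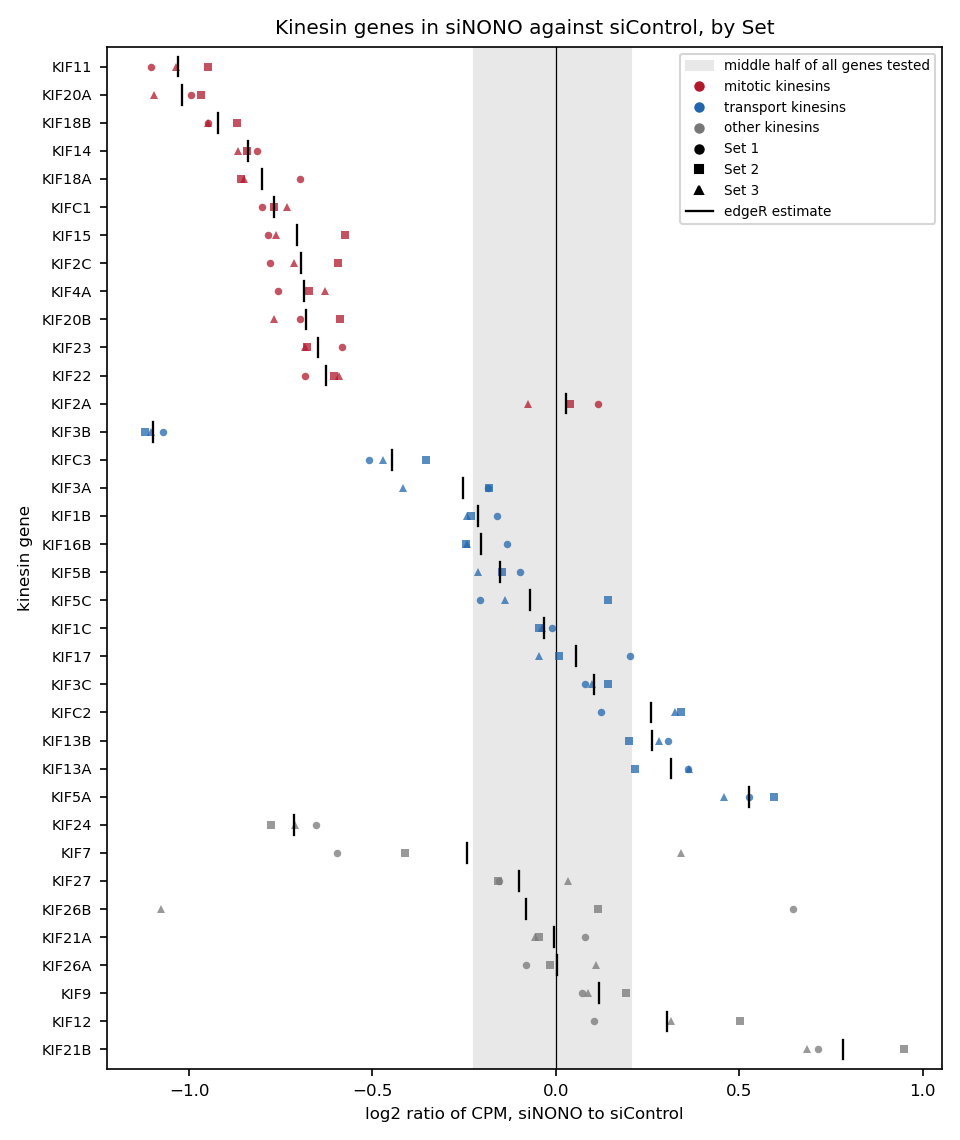
Log2 ratio of CPM in siNONO to siControl (x axis) for the 36 tested kinesin genes (y axis), with 1 symbol per Set, a black bar for the edgeR estimate and a grey band for the middle 50% of all genes tested, from -0.22 to 0.21. All 3 Sets of 12 mitotic kinesins, of the transport kinesins KIF3B and KIFC3 and of KIF24 lie left of the band. KIF2A and most transport kinesins lie in or near it.

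Seen as transcript levels, the mitotic kinesins made up the larger part of the family in siControl and the smaller part in siNONO. Their summed level was 492, 497 and 514 TPM in the siControl libraries of Sets 1, 2 and 3 and 293, 300.1 and 289 TPM in the siNONO libraries. That sum was 53.7% ± 0.783 of all kinesin TPM (SD, n = 3) in siControl and 43.3% ± 0.668 (SD, n = 3) in siNONO. Transport kinesins summed to 379 ± 10.8 TPM in siControl and 333 ± 2.90 TPM in siNONO (SD, n = 3 each), and their share was 40.7% ± 0.801 and 49.1% ± 0.529. The remaining group gave 52.1 ± 0.881 and 51.8 ± 0.789 TPM (SD, n = 3), which differ by less than the spread between libraries. KIF1C, a carrier of vesicles and mRNA, had the highest mean TPM of the family in both groups, at 94.5 ± 1.73 and 88.5 ± 4.34 TPM (SD, n = 3).

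**Figure D2:**
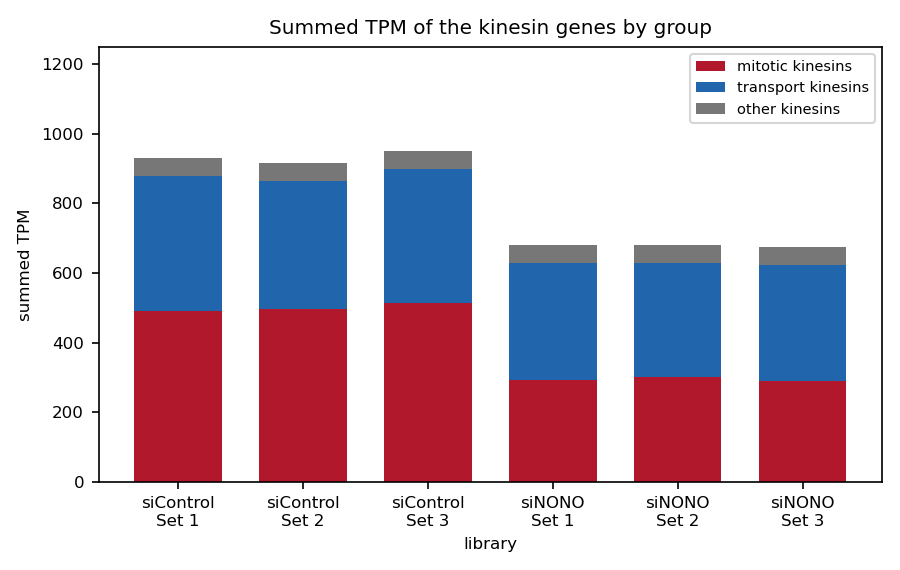
Summed TPM (y axis) of the mitotic, transport and other kinesin genes in each of the 6 libraries (x axis), as stacked bars that start at 0. The red mitotic part is 492 to 514 TPM in siControl and 289 to 300.1 TPM in siNONO, and the grey part is of like height in all 6 libraries.

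The motors that build and hold the bipolar spindle came first. KIF11, also known as Eg5, is a tetramer that cross-links antiparallel microtubules and slides the poles apart. It lies on the plus strand of chromosome 10 of GRCh37 from 94333862 to 94415152. In siControl it stood at 90.7, 89.3 and 80.0 CPM in Sets 1 to 3, and in siNONO at 42.2, 46.2 and 39.0 CPM. The groups were far apart, with a log2 fold change of -1.03 (standard error 0.0427, adjusted p = 1.92e-09 by edgeR), which leaves 49.0% of the siControl level. KIF15, which can take over from KIF11 in keeping poles apart, was at 26.1, 26.6 and 27.3 CPM in siControl and 15.1, 17.8 and 16.1 CPM in siNONO. KIF15 thus changed by -0.71 on the log2 scale (standard error 0.0625, adjusted p = 1.52e-06 by edgeR), with the groups apart. KIFC1, a minus-end motor that focuses the poles and clusters extra centrosomes in tumour cells, had 77.5, 87.7 and 84.8 CPM in siControl and 44.5, 51.5 and 51.0 CPM in siNONO. No siNONO library reached a siControl library, and the log2 scale change of -0.77 had a standard error of 0.0387 (adjusted p = 1.12e-08 by edgeR).

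Motors that move and align chromosomes were lower as well. KIF22, or Kid, binds chromosome arms and pushes them towards the spindle equator. With 101, 107 and 106 CPM in siControl against 63.2, 70.1 and 70.6 CPM in siNONO, it had the smallest change among the mitotic members called, a log2 fold change of -0.63 (standard error 0.0366, adjusted p = 4.1e-08 by edgeR). It was also the mitotic kinesin with the highest level in siControl, at 89.1 ± 6.76 TPM (SD, n = 3), and fell to 54.0 ± 1.90 TPM in siNONO. KIF4A, a chromokinesin that also limits the length of midzone microtubules, had 58.7, 60.9 and 58.7 CPM in siControl and 34.7, 38.2 and 37.9 CPM in siNONO, a log2 fold change of -0.69 (adjusted p = 1.07e-07 by edgeR). KIF4B, an intronless copy of KIF4A, held at most 5.01 estimated counts in any library and was not tested, and reads shared between the copies could have been split by RSEM. KIF18A, which damps chromosome movements by slowing microtubule growth at kinetochores, was at 72.2, 75.2 and 65.6 CPM in siControl. In siNONO it was at 44.5, 41.5 and 36.3 CPM, a log2 fold change of -0.80 (adjusted p = 3.45e-08 by edgeR).

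Of the members that shorten microtubules or act on their ends, KIF18B and KIF2C were lower and KIF2A was not called. KIF18B, which acts on astral microtubule ends, stood at 71.3, 78.4 and 84.5 CPM in siControl and 36.9, 43.0 and 43.8 CPM in siNONO. That is a log2 fold change of -0.92 (standard error 0.0410, adjusted p = 3.56e-09 by edgeR). The depolymerase KIF2C, or MCAK, which corrects faulty kinetochore attachments, had 70.5, 72.5 and 76.5 CPM against 41.0, 48.0 and 46.6 CPM and a log2 fold change of -0.70 (adjusted p = 9.65e-08 by edgeR). In both genes the libraries of the groups stayed apart. KIF2A, a depolymerase of spindle poles that also acts in cells that do not divide, was at 88.8, 91.5 and 85.9 CPM in siControl and 96.1, 94.1 and 81.5 CPM in siNONO. Here the groups overlapped, with an estimate of 0.03 on the log2 scale (standard error 0.0409, adjusted p = 0.599 by edgeR). Exons of KIF2A share 18.7% of their bases with exons of DIMT1 on the opposite strand, and the sources used here do not say whether counting used strand. KIF2B, known from testis, was listed at 0 in all 6 libraries.

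Kinesins of the midzone and of cytokinesis formed the last mitotic group. KIF20A, or MKLP2, brings the chromosomal passenger complex to the midzone. Its level was 85.2, 91.6 and 96.6 CPM in siControl and 42.7, 46.8 and 45.2 CPM in siNONO, and the log2 fold change of -1.02 (standard error 0.0410, adjusted p = 1.42e-09 by edgeR) left 49.4% of the siControl level. KIF23, or MKLP1, the motor subunit of centralspindlin, had 126, 129 and 124 CPM in siControl and 83.9, 80.9 and 77.3 CPM in siNONO, with a log2 fold change of -0.65 (adjusted p = 2.47e-08 by edgeR). RACGAP1, its partner in centralspindlin, had a log2 fold change of -0.31 (adjusted p = 1.08e-05 by edgeR), so the estimate for the motor was the more negative, and the difference itself was not tested. KIF14, which works with citron kinase in abscission, was at 74.6, 75.5 and 70.3 CPM in siControl and 42.4, 42.1 and 38.5 CPM in siNONO, a log2 fold change of -0.84 (adjusted p = 7.56e-09 by edgeR). KIF20B, another motor of cytokinesis, had 77.1, 77.6 and 65.6 CPM against 47.5, 51.6 and 38.6 CPM. The siControl and siNONO libraries of KIF20B did not overlap, though the library of Set 3 was the lowest in each group, and its log2 fold change was -0.68 (adjusted p = 9.85e-08 by edgeR).

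Across all 12 called mitotic kinesins the log2 fold change ran from -1.03 for KIF11 to -0.63 for KIF22. Each of the 12 was lower in 3 of 3 Sets and was called lower under each of the 14 alternative settings. Where 1 library was left out, the Set block also took up its partner, so both drops within a Set are nearly the same check. In bulk RNA, fewer cells in a phase of the cell cycle and less transcript per cell cannot be told apart. Of 20 proliferation markers, 19 were lower and 1 was higher, against 23.4% and 23.2% of all genes, with a median log2 fold change of -0.47. The summed level of these markers was 2132 to 2236 TPM in the siControl libraries and 1417 to 1549 TPM in the siNONO libraries. MKI67 had a log2 fold change of -1.06 (adjusted p = 1.86e-10 by edgeR) and CCNE2 one of -1.09, while CDC20 was at -0.22, and CCNE1, a cyclin of the entry into S phase, rose by 0.49 on the log2 scale. The part of the proliferation genes in the kinesin result was not tested.

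The upstream sequences of the mitotic kinesins were read because the members moved together. Many genes expressed in G2 and mitosis carry a CHR element, the site of the MuvB complexes, near their start, often downstream of CCAAT boxes bound by NF-Y. RefSeq promoters on GRCh38.p14, taken from 250 bases before to 50 bases after each start, matched 34 of the 42 kinesin symbols. The letters TTTGAA or TTCGAA, for the CHR on either strand, were found in 11 of 15 mitotic kinesins, in 1 of 11 transport kinesins and in 1 of 8 of the remaining group, against 19.5% of all 27305 genes with a promoter. The letters CCAAT on either strand were found in 11 of 15, 4 of 11 and 3 of 8, against 39.7% of all genes. Both occurred in 10 of 15 mitotic kinesins and in 7.85% of all genes. The 10 include KIF4B, the copy of KIF4A that was not tested, and of the 12 mitotic kinesins called lower 9 held both. Among the 11669 genes tested for expression that had a promoter, the shares were 15.3% for the CHR, 42.7% for CCAAT and 6.47% for both. TTTGGCGC or TTTCCCGC, letters of an E2F site, occurred among the mitotic members in KIF15 alone. TTCGAA reads the same on both strands, and no motif lies within another.

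**Figure D3:**
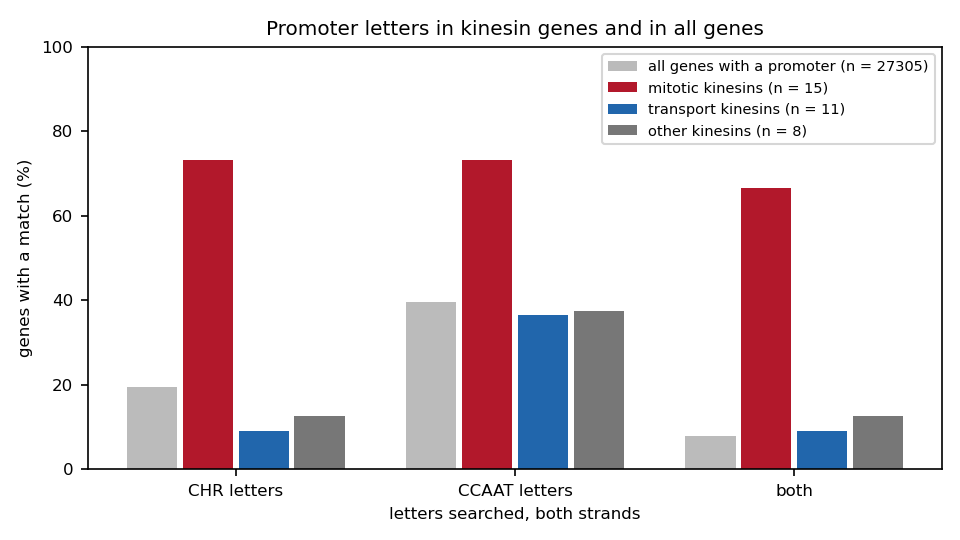
Share of genes (y axis, percent) whose promoter window holds the CHR letters, the CCAAT letters or both (x axis), for all genes with a promoter and for the mitotic, transport and other kinesins. The mitotic bars stand at 73.3%, 73.3% and 66.7%, and those of all genes at 19.5%, 39.7% and 7.85%.

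Of the 12 mitotic kinesins that fell, 10 held the CHR letters in the window, and KIF20A and KIF2C did not. Neither KIF2A, whose level was not called, nor KIF3B held them. KIF5B held TTTGAA at 140 bases before the start, and KIF24, outside the mitotic list, held TTCGAA at base 2 after it. A match is a description of letters and not a mapped site. Other forms of the CHR were not searched. The windows below run from 120 bases before to 30 bases after the start, 5′ to 3′ on the strand of the gene, with matches in capitals. They show the arrangement in 3 members with both motifs, in KIF20A with only CCAAT among the letters searched, and in the transport kinesin KIF3B. These windows lie on GRCh38.p14 at chr10:92593010-92593159 (plus strand) for KIF11, chr17:44947744-44947893 (minus strand) for KIF18B, chr15:69414229-69414378 (plus) for KIF23, chr5:138178992-138179141 (plus) for KIF20A and chr20:32277531-32277680 (plus) for KIF3B.
KIF11: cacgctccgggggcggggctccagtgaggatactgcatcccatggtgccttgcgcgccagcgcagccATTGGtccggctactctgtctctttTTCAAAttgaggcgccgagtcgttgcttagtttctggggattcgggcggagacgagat
KIF18B: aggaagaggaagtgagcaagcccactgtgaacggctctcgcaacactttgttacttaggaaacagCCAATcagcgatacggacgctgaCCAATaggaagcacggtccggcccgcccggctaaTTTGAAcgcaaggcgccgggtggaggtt
KIF23: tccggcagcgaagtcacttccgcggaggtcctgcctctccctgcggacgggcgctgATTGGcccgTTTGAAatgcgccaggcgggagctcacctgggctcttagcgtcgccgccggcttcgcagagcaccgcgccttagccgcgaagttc
KIF20A: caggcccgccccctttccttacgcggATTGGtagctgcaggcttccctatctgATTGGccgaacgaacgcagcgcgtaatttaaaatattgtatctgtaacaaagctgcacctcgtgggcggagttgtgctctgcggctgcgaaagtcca
KIF3B: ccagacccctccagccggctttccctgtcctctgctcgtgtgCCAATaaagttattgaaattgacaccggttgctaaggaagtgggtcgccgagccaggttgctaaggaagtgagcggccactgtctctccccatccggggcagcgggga
In KIF11 the CHR letters begin 28 bases before the start and the CCAAT letters 53 bases before it, both read on the opposite strand. KIF18B has CCAAT at 55 and 32 bases before the start and TTTGAA from base 3 after it, and KIF23 has them 64 and 55 bases before the start.

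Partners of the mitotic kinesins moved in the same direction as the motors. All 17 listed partners were lower, against 23.4% of all genes, with a median log2 fold change of -0.56. Among them were the loading factor TPX2, the midzone bundler PRC1 and the passenger complex. CENPE, the kinetochore kinesin outside the KIF naming, went from 69.8 ± 5.44 to 41.3 ± 3.51 CPM (SD, n = 3), a log2 fold change of -0.76 (adjusted p = 2.48e-08 by edgeR). The lowest values were those of HMMR, a spindle pole factor, at -1.08, and of ECT2, the exchange factor that centralspindlin recruits, at -1.04. NUMA1, which anchors dynein at the poles, was the least negative at -0.17 (adjusted p = 0.000532 by edgeR).

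Among the transport kinesins, KIF3B stood out by the size of its estimate. KIF3B pairs with KIF3A in heterotrimeric kinesin-2, the motor of anterograde transport in cilia and of several cytoplasmic cargoes. It lies on the plus strand of chromosome 20 of GRCh37 from 30865454 to 30922814. In siControl it had 121, 134 and 130.1 CPM in Sets 1 to 3, and in siNONO 57.6, 61.4 and 60.6 CPM. The change was nearly the same in each Set, at -1.07, -1.12 and -1.10 on the log2 scale, and the fitted value of -1.10 (standard error 0.0350, adjusted p = 1.86e-10 by edgeR) was the lowest of the whole kinesin family. The next lowest transport member was KIFC3 at -0.45, and no test of the difference between genes was made.

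The other subunits of kinesin-2 had other values than KIF3B, and the differences between the genes were not tested. KIF3A had 43.7, 40.5 and 38.6 CPM in siControl and 38.4, 35.7 and 28.9 CPM in siNONO, a log2 fold change of -0.25 (standard error 0.0558, adjusted p = 0.00235 by edgeR) that leaned on Set 3, where the ratio was -0.42 against -0.18 in the other two. KIF3C, an alternative partner of KIF3A, was not called, with a log2 fold change of 0.10 (adjusted p = 0.17 by edgeR). KIFAP3, the cargo-binding subunit, rose from 11.6 ± 0.340 to 16.0 ± 0.606 CPM (SD, n = 3), a log2 fold change of 0.46 (adjusted p = 0.000127 by edgeR). As TPM, which can be compared between genes, KIF3B was 1.62, 2.28 and 2.51 times KIF3A in the siControl libraries of Sets 1 to 3 and 0.851, 1.00 and 1.28 times KIF3A in the siNONO libraries. Every siNONO ratio lay below every siControl ratio, and within each Set the ratio was lower in siNONO.

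Kinesin-1, the main motor of long-range cargo transport, moved in small steps and in both directions. KIF5B, its ubiquitous heavy chain, on the minus strand of chromosome 10 of GRCh37 from 32297943 to 32345353, was the third most abundant kinesin in siControl at 87.3 ± 3.24 TPM (SD, n = 3). It had 359, 358 and 335 CPM in siControl and 335, 323 and 289 CPM in siNONO, so the groups touched at 335 CPM although each Set was lower in siNONO, with log2 ratios of -0.10, -0.15 and -0.21. The fitted value for KIF5B was -0.15 (standard error 0.0311, adjusted p = 0.00147 by edgeR). KIF5A, known as the neuronal heavy chain, was at 13.8, 13.7 and 14.6 CPM in siControl and 19.9, 20.7 and 20.0 CPM in siNONO. No libraries of the groups overlapped, and KIF5A rose by 0.53 on the log2 scale (standard error 0.0635, adjusted p = 2.16e-05 by edgeR). KIF5C, the third heavy chain, was not called, with a log2 fold change of -0.07 (adjusted p = 0.463 by edgeR). KIF5B remained the dominant heavy chain, at 17.2 to 24.0 times the TPM of KIF5A in siControl and 13.1 to 16.2 times in siNONO.

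**Figure D4:**
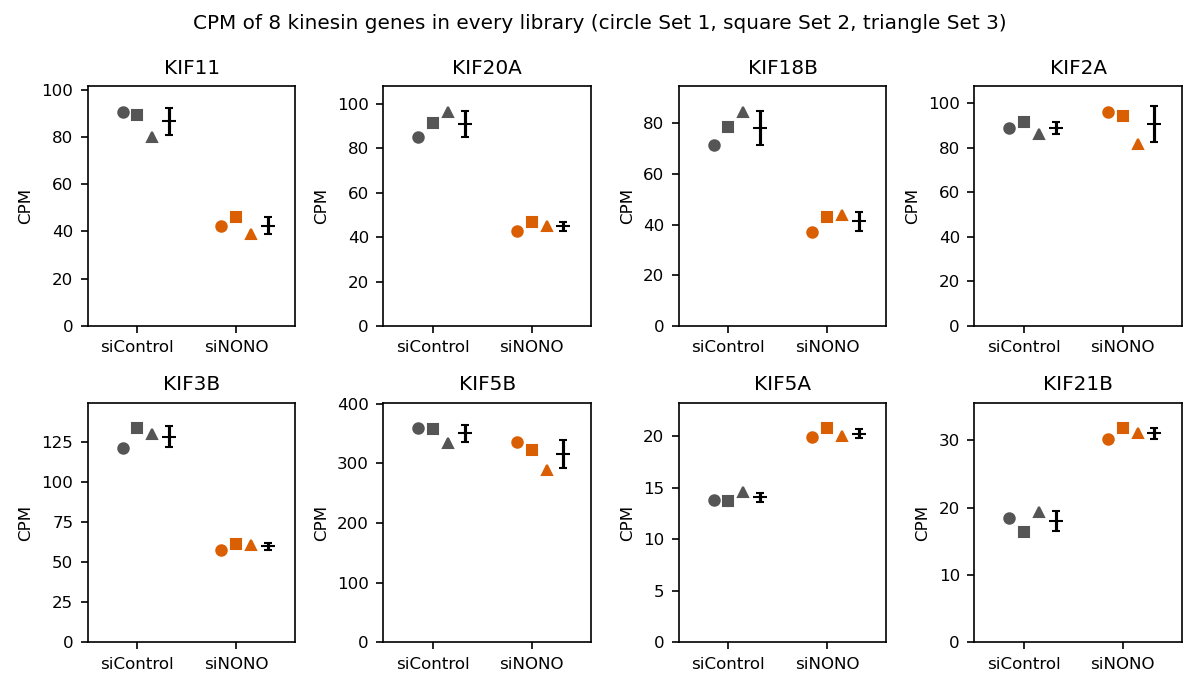
CPM (y axes, from 0) of 4 mitotic kinesins (KIF11, KIF20A, KIF18B, KIF2A), 3 transport kinesins (KIF3B, KIF5B, KIF5A) and KIF21B in every siControl and siNONO library, with the mean and SD of the 3 libraries as a black bar. Groups are apart in all panels except those of KIF2A and KIF5B, and KIF5A and KIF21B are higher in siNONO.

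Kinesin-3 members, which carry endosomes and vesicles, were split. KIF13A, a motor of recycling endosomes, had 53.0, 56.6 and 51.3 CPM in siControl and 68.0, 65.8 and 66.0 CPM in siNONO. It rose by 0.31 on the log2 scale (standard error 0.0436, adjusted p = 7.6e-05 by edgeR), and its relative KIF13B by 0.26 (adjusted p = 0.00116 by edgeR). KIF1B, a carrier of mitochondria and synaptic vesicle precursors, went the other way, from 172 ± 6.16 to 148 ± 4.49 CPM (SD, n = 3), a log2 fold change of -0.21 (adjusted p = 0.000152 by edgeR). KIF16B, which moves early endosomes, was at -0.20 (adjusted p = 0.0213 by edgeR), and lost its call without the siControl or siNONO library of Set 2 (0.152 and 0.124) or of Set 3 (0.0678 and 0.0561). The call of KIF16B was also lost without a filter on low counts (adjusted p = 0.0529 by edgeR) and by DESeq2 (adjusted p = 0.236). KIF1C had a log2 fold change of -0.03 (adjusted p = 0.408 by edgeR) on 267 ± 10.5 CPM in siControl, and KIF1A, the neuronal member, held at most 9 counts in any library and was not tested.

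The minus-end motors of the transport list moved apart. KIFC3, which acts at cell junctions and the Golgi, had 32.7, 30.4 and 36.3 CPM in siControl and 22.9, 23.8 and 26.2 CPM in siNONO. Its libraries did not overlap, and, in a call lost on log2(TPM + 1), KIFC3 changed by -0.45 on the log2 scale (standard error 0.0541, adjusted p = 2.31e-05 by edgeR). KIFC2 rose by 0.26 on the log2 scale (adjusted p = 0.000328 by edgeR), although 17.8% of its exon bases are shared with FOXH1 on the opposite strand. KIF17, a ciliary and dendritic motor, rested on 1.80 ± 0.464 CPM in siControl (SD, n = 3) and was not called.

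The calls of the 4 higher transport kinesins, KIF5A, KIF13A, KIF13B and KIFC2, and of 2 lower ones were lost on log2(TPM + 1). That setting changed the unit and the test together, and their parts were not separated. On log2(TPM + 1), tested with limma, 0 of the 14 tested were called higher and KIF13B and KIFC2 had adjusted p-values of 0.892 and 0.572 by limma. At an unadjusted p under 0.05, limma on that scale gave 3 transport kinesins higher (KIF3C, KIF5A and KIF13A). Of the 6 called lower, KIF3A and KIFC3 lost the call on log2(TPM + 1), with log2 fold changes of -0.15 and -0.51 and adjusted p-values of 0.172 and 0.0653 by limma. From the same 6, 3 were called without the Set as a block, where KIF3A, KIF5B and KIF16B had adjusted p-values of 0.0536, 0.0649 and 0.0602 by edgeR.

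Of 20 cargo-side light chains and adaptors tested, 5 were lower, 5 were higher and 10 were not called, with a median log2 fold change of 0.02, and these shares are near the 23.4% and 23.2% of all genes. The kinesin light chains KLC3 and KLC4, which link kinesin-1 to its cargo, had log2 fold changes of 0.59 (adjusted p = 4.17e-06 by edgeR) and -0.37 (adjusted p = 0.00438 by edgeR), the latter at 0.0623 and 0.0524 without the siControl or the siNONO library of Set 1. KLC4 was not called by DESeq2 either (adjusted p = 0.0866), nor on log2(TPM + 1), where it was at -0.15 (adjusted p = 0.131 by limma). FEZ2, an adaptor, was the lowest of the list at -0.51 (adjusted p = 1.94e-05 by edgeR), and was not called on log2(TPM + 1) (adjusted p = 0.0787 by limma). Dynein and dynactin, the motor that runs against most kinesins, had 9 lower, 2 higher and 11 not called of 22 genes tested, against 23.4% lower and 23.2% higher among all genes, with a median of -0.07. The light chains DYNLL2 and DYNLL1 marked its range, at -0.45 (adjusted p = 1.45e-07 by edgeR) and 0.14 (adjusted p = 0.00396 by edgeR), with DCTN3 at -0.42 and DCTN5 at 0.13 next to them. On log2(TPM + 1) neither higher gene was called, with DYNLL1 at 0.057 and DCTN5 at -0.08 (adjusted p = 0.464 and 0.362 by limma). Neither was called without the Set as a block, and DCTN5 was not called by DESeq2 (adjusted p = 0.0747). DCTN5 also lost the call without the siControl or siNONO library of Set 1 (0.105 and 0.119 by edgeR), and DYNLL1 without the siNONO library of Set 2 (0.0502 by edgeR).

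In the remaining group 2 genes were called, in opposite directions. KIF24, which restrains cilium growth at the mother centriole in cycling cells, had 12.3, 14.2 and 13.5 CPM in siControl and 7.79, 8.31 and 8.26 CPM in siNONO. It fell in every Set, with a log2 fold change of -0.71 (standard error 0.0784, adjusted p = 9.65e-06 by edgeR), the size of the median mitotic member. KIF21B, a motor that also regulates microtubule growth in neurons and lymphocytes, had 18.4, 16.5 and 19.3 CPM in siControl and 30.3, 31.8 and 31.0 CPM in siNONO. This was the highest fold change of the family, a rise of 0.78 on the log2 scale (standard error 0.0635, adjusted p = 6.95e-07 by edgeR), while its paralogue KIF21A was at -0.01 (adjusted p = 0.932 by edgeR) on 74.9 ± 4.42 CPM in siControl (SD, n = 3).

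The other 6 tested genes of this group, KIF7, KIF9, KIF12, KIF26A, KIF26B and KIF27, were not called, with log2 fold changes from -0.24 for KIF7 to 0.30 for KIF12. KIF12 and KIF9 lay above siControl in all siNONO libraries, at 4.51 ± 0.480 against 5.57 ± 0.579 CPM and 5.85 ± 0.0643 against 6.35 ± 0.351 CPM (SD, n = 3), with adjusted p-values of 0.0696 and 0.395 by edgeR. KIF26B varied most between Sets, with log2 ratios of 0.65, 0.11 and -1.08. KIF6, KIF19 and KIF25 held at most 8 counts in any library and were not tested. At such depth no difference in these genes was detectable.

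A second readout of the same libraries is the mean transcript length that RSEM gives each gene, weighted by the abundance of its isoforms, so that a shift towards shorter or longer isoforms moves it. By limma on log2 length, 0 of 34 kinesins had a changed length at an adjusted p of at most 0.05, and so did 0% of the 14129 genes tested, with 1213 genes and 2 kinesins at an unadjusted p under 0.05. The kinesins were KIF3C, with 5161, 4254 and 4828 bases in siControl and 4518, 3648 and 4026 bases in siNONO, and KIF16B, with means of 4353 ± 398 and 4693 ± 271 bases (SD, n = 3), each moving the same way in 3 of 3 Sets. Both were picked by the p-value of a test blocked by Set, so their like direction across Sets is no added support. The adjusted p-values of KIF3C and KIF16B were 0.519 and 0.55 by limma. In simulated lengths the test recovered 73.5% of 200 genes shifted by 1 on the log2 scale. Smaller shifts were not simulated and could go undetected.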

How the data were processed

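RNA-seq of 3 siControl and 3 siNONO libraries was read from 1 deposited table per library. After sickle trimming, the authors mapped reads by STAR against the transcripts of GENCODE version 34 (build GRCh37), and RSEM (version 1.3.1) gave the gene values. The deposited expected counts are estimated and not normalized, the deposited TPM is scaled by length and library, and the deposited length columns are other values in bases.

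Counts were rounded, filtered with filterByExpr, scaled by TMM and fitted in edgeR (version 4.0.16, in its earlier quasi-likelihood form) with the Set as a block, since the authors adjusted for batch, and p-values were adjusted over all genes tested by the Benjamini-Hochberg method. Same-Set libraries deviated together (correlations 0.428, 0.257 and 0.509 across 10814 genes, over the limit of 0.1). Every replicate pair differed beyond sampling noise. Standard errors follow from fold change and F. The biological coefficient of variation was 3.51%. The fits were tested on simulated data. In simulated counts, 79.6% of 98 genes changed by 1 and 58.2% of 98 changed by 0.5 on the log2 scale were recovered. The same simulation gave 12 false calls, so true changes of these sizes can go uncalled. Symbols were matched for 99.6% of IDs. Lengths were tested with limma (version 3.58.1).

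The members and all lists were chosen with earlier results of these data known. Every mitotic kinesin tested, KIF3B, KIF5B and called members that changed by 0.3 or more on the log2 scale were described by library, and other lists by the 2 highest and 2 lowest called genes plus CENPE and RACGAP1. TPX2, PRC1, PTPRC, CD3E and COL1A1 were named after their values were seen. Coordinates come from GENCODE version 44 on GRCh37. The alternatives tried were the size factors of DESeq2, unscaled library size, other filters on low counts, no block, edgeR 4, DESeq2 (version 1.42.0), limma on log2(TPM + 1) and each library left out. The fits with a library left out kept the Set block. Its partner in the Set then adds nothing to the fold change, so both drops within a Set amount to leaving out that Set.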

Additional observations from a re-analysis of the deposited data

How the results depend on the processing

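Of the summary values recomputed under alternatives, 101 stayed the same and 6 moved. Medians were judged by their spread between Sets, counts by a factor of 1.5, and the NONO change by its sign and call. Length counts of 0 were taken as the same. Mitotic kinesins called lower stayed at 12 under every alternative, and kinesins called in all ranged from 18 to 24. On log2(TPM + 1) with limma the mitotic median was -0.76, the transport median -0.12 and the transport kinesins called higher 0, where the median of all genes was itself -0.071 against -0.00 in the counts. Without a filter on low counts the transport median was -0.013. Leaving out 1 library gave a mitotic median from -0.77 to -0.68 and a transport median from -0.087 to -0.026. Without the replicate block that pairs the Sets, transport kinesins called lower were 3, and the kinesins called in all were 21 against 24; the block changed no call among the mitotic kinesins. Among single genes, 20 values changed sign, 28 lost the call and 1 gained it (KIF12 without a filter, adjusted p = 0.0455 by edgeR). The sign changed for KIF26A with library size alone (-0.013) and on log2(TPM + 1) (-0.071), for KIF21A without a filter (0.013), and on log2(TPM + 1) for KIF2A (-0.089), KIF17 (-0.091) and DCTN5 (-0.082). Leaving out 1 library spanned 0 for KIF2A (-0.015 to 0.082), KIF17 (-0.017 to 0.11), KIF5C (-0.17 to 0.011), KIF21A (-0.049 to 0.027), KIF26A (-0.051 to 0.053) and KIF26B (-0.50 to 0.41). None of these kinesins was called, and DCTN5 was. Changed lengths stayed at 0. The cause was not tested. Genes of few counts, such as KIF7 and KIF17, are limited by depth.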
